A study of Caenorhabditis elegans with 6 samples.

Results

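Mitochondrial protein import genes encode the translocases that carry proteins made in the cytosol into the mitochondrion. Of the 46904 genes in the deposited table, 10 were taken by gene name: the outer membrane translocase (TOM) genes *tomm-7*, *tomm-20*, *tomm-22*, *tomm-40* and *tomm-70*, the inner membrane translocase (TIM23) genes *timm-17B.1* and *timm-23*, and the small TIM chaperone genes *tin-9.1*, *tin-10* and *tin-13*. All 10 were listed, and the rule uses names, not measured values. Each was at 17.2 TPM or more in every library, where the unit TPM gives each gene's length-corrected share of the library, and all 10 passed the filter on low values.

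The libraries hold RNA bound to tagged ribosomes (translating ribosome affinity purification) from young adult *Caenorhabditis elegans* grown at 20 °C. The antimycin A group, 3 libraries, spent 6 h on a bacterial lawn with 4.5 µM antimycin A, which blocks complex III of the respiratory chain, and the EtOH group, 3 libraries, spent 6 h on a lawn with ethanol, the vehicle. All animals were of strain CLP1481 with the extrachromosomal array twnEx675, which holds 2 transgenes: Ptbh-1::rpl-22::3xHA, in which the promoter of the tyramine beta-hydroxylase gene *tbh-1* drives an HA-tagged RPL-22, a protein of the large ribosomal subunit, and the reporter Pgcy-8::gfp. Both groups thus carry the tag and the reporter. None of the 6 libraries is of RNA taken before the purification. A change in transcript level and a change in ribosome binding therefore cannot be told apart. The experiment was done 3 times independently, each time with an antimycin A and an EtOH library of the same replicate number.

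In most mitochondrial import, a precursor is recognised by TOM receptors, passes the TOM pore, and is then taken over by an inner membrane translocase or by small TIM chaperones of the intermembrane space. Import into the matrix also needs the membrane potential that the respiratory chain builds and a chaperone motor. In *C. elegans*, the transcription factor ATFS-1 is normally imported and degraded, and goes to the nucleus when import is impaired.

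The labels call the source *tbh-1* expressing neurons. *tbh-1* was present at 1455 to 2683 TPM in antimycin A and 1592 to 1722 TPM in EtOH. The list of *tbh-1* neuron markers also held *tdc-1* (means of 16.3 TPM in antimycin A and 13.5 TPM in EtOH) and *cat-1* (2.60 and 1.38 TPM). None of these markers was called by limma, with or without the replicate number as a block. Transcripts on the other marker lists were present too. Which cells these transcripts and those of *tbh-1* came from was not tested. The 4 gonadal sheath and somatic gonad markers summed to 4891 to 6546 TPM in antimycin A and 2799 to 4361 TPM in EtOH. Most of this was *inx-8*, with means of 4622 TPM in antimycin A and 3201 TPM in EtOH. Limma called 0 of 4 without the replicate number as a block, and with it *inx-8* and *inx-9* higher (adjusted p = 0.0206 and 7.51e-04). *lim-7* (log2 fold change 0.30) and *fkh-6* (-0.41) were called in neither fit, and *fkh-6* was lower in all 3 pairs. The 6 intestine markers summed to 1624 to 4396 TPM in antimycin A and 7884 to 9396 TPM in EtOH, with 4 lower and 1 higher, and 5 lower and 1 higher with the block. Most of this sum was *vit-2*, *vit-6* and *asp-1*, with means of 948, 979 and 929 TPM in antimycin A. In EtOH their means were 3521, 2159 and 2655 TPM. *ges-1* was the marker called higher (1.15, limma adjusted p = 0.0117). *elt-2* was called lower only with the block (limma adjusted p = 0.0213). The 8 pan-neuronal markers summed to 506 to 803 TPM in antimycin A and 271 to 480 TPM in EtOH. Of the 6 tested, 1 was called higher, and 3 with the block (*snb-1*, *egl-3* and *sbt-1*). *unc-31* was listed at 0 in at least 1 library. For comparison, 14.2% of all tested genes were called higher and 6.47% lower without the block. With the block these shares were 29.6% and 13%. In such mixed RNA, fewer cells of a type and less RNA per cell cannot be told apart, and the part that cell mixture has in the import values was not tested. Protein-coding genes held 76.0% of antimycin A replicate 3, and 84.6% to 91.4% of the other 5 libraries; rescaled to protein-coding genes, 2 members were lower and 0 higher, as without rescaling. Library depth is unknown, since TPM hold no read counts.

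In antimycin A, ribosome-bound transcripts of *tomm-7* and *tin-13* fell to 0.488 and 0.642 of their EtOH means. *tomm-7* encodes a small subunit of the outer membrane pore, and *tin-13* a chaperone of the intermembrane space. With group as the only term, the other 8 members were not called and 0 were called higher (limma, Benjamini-Hochberg adjusted p below 0.05). Of all 11099 genes tested, 6.47% were called lower and 14.2% higher. The median log2 fold change of the 10 members was -0.19, against 0.21 for all tested genes. With the replicate number as a block, *tomm-7*, *tin-9.1*, *tin-10* and *tin-13* were called lower and *tomm-70* higher, where 13% of all tested genes were called lower and 29.6% higher. Of the members, 4 had antimycin A libraries that all lay below the EtOH libraries, as 11.6% of all tested genes did, and 1 had them all above, as 23.1% did. In the same-numbered pairs, 5 members were lower in antimycin A in all 3 pairs (20.1% of all tested genes were) and 3 were higher in all 3 (43.2%).

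**Figure D1:**
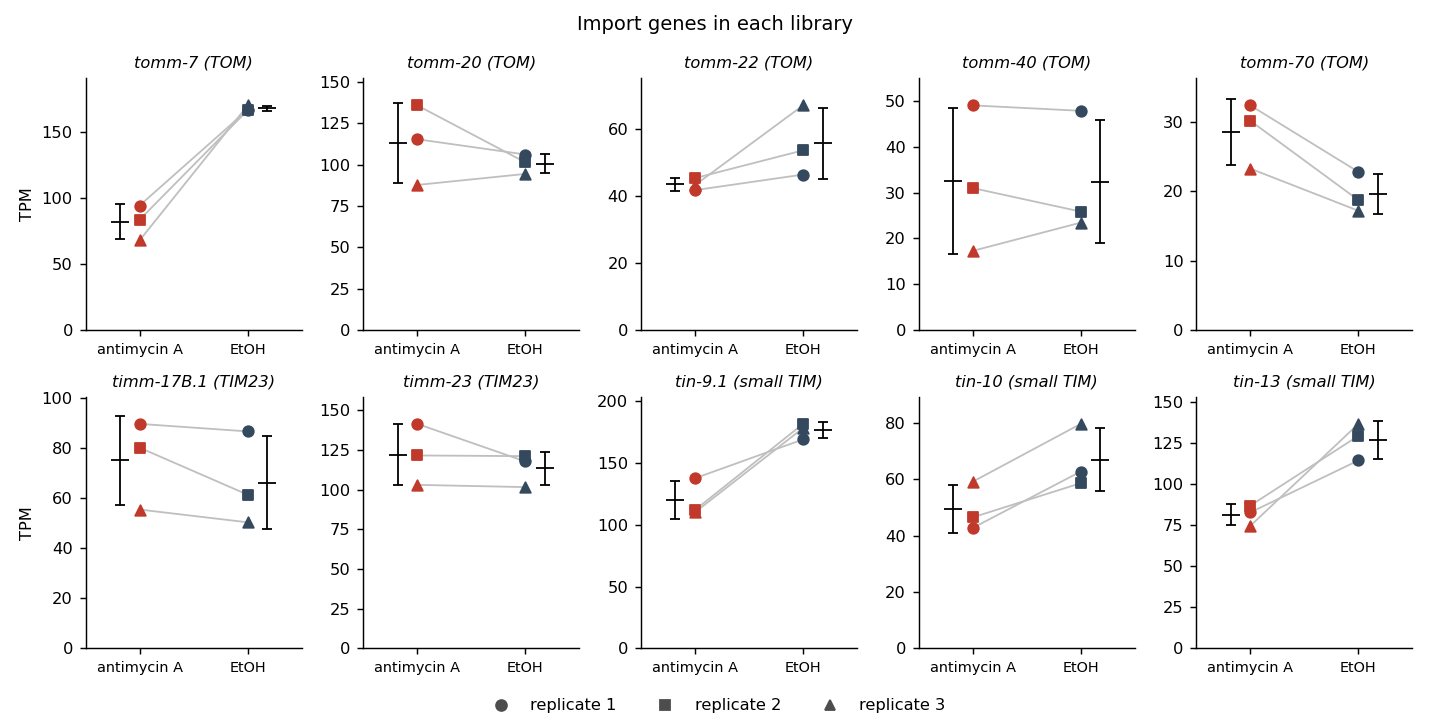
TPM of each import gene in the 6 libraries, with antimycin A on the left (red) and EtOH on the right (dark blue). Grey lines join libraries of the same replicate number, and black bars show the mean ± SD of 3 libraries. The antimycin A points of *tomm-7*, *tomm-22*, *tin-9.1* and *tin-13* lie below all EtOH points, and those of *tomm-70* lie above them.

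Of the 5 TOM genes, *tomm-7* fell and the other 4 were not called without the replicate block. *tomm-7*, the homologue of the small pore subunit TOM7 (WBGene00022783, WBcel235 chromosome III, 7859613 to 7860159), stood at 94.3, 83.6 and 67.9 TPM in replicates 1 to 3 of antimycin A, against 167, 167 and 170.3 TPM in those of EtOH; all values per library below follow this replicate order. The groups stood far apart, and the EtOH libraries hardly differed among themselves. The means were 81.9 TPM ± 13.3 in antimycin A and 168 TPM ± 2.01 in EtOH (SD, n = 3 each), a log2 fold change of -1.04 ± 0.20 SE on the log2(TPM + 1) scale (limma adjusted p = 0.00468). The same-numbered pairs gave antimycin A over EtOH ratios of 0.565, 0.501 and 0.399. *tomm-7* remained called with any 1 library left out (highest adjusted p = 0.0288) and was not called without both libraries of replicate 2 (-1.07, adjusted p = 0.125).

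*tomm-22*, the homologue of the central receptor TOM22 (WBGene00021133, chromosome II, 468374 to 470475), read 41.7, 45.3 and 43.2 TPM in antimycin A, against 46.4, 53.6 and 67.0 TPM in EtOH. Its libraries did not overlap between groups, but antimycin A replicate 2 lay just under EtOH replicate 1, and the gene was not called (-0.34 ± 0.22, limma adjusted p = 0.379, blocked 0.0996). The 95% interval of its log2 fold change ran from -0.84 to 0.17.

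*tomm-20*, the homologue of the TOM20 receptor for precursors with a cleavable presequence (WBGene00009092, chromosome V, 12342314 to 12343469), read 115, 136 and 87.7 TPM in antimycin A, against 106, 101 and 94.3 TPM in EtOH. The groups overlapped and replicate 3 went the other way from replicates 1 and 2. The log2 fold change was 0.14 with a 95% interval of -0.34 to 0.63 (limma adjusted p = 0.757), and its sign turned after median-of-ratios scaling (-0.14).

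*tomm-40*, the homologue of the channel TOM40 (WBGene00007686, chromosome II, 8971965 to 8973566), read 49.1, 31.02 and 17.3 TPM in antimycin A, against 47.9, 25.9 and 23.5 TPM in EtOH. Both replicate 1 libraries were high and the spread between replicates exceeded any difference between groups. Its means were 32.5 TPM ± 15.96 in antimycin A and 32.4 TPM ± 13.5 in EtOH. The 95% interval of the log2 fold change, -0.93 to 0.85, was the widest of the 10 members (limma adjusted p = 0.972).

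*tomm-70*, the homologue of the TOM70 receptor, which in yeast and mammals takes precursors such as metabolite carriers from cytosolic chaperones (WBGene00022722, chromosome III, 8752091 to 8754750), read 32.4, 30.2 and 23.3 TPM in antimycin A, against 22.8, 18.7 and 17.2 TPM in EtOH. It was the only member with every antimycin A library above every EtOH library, and the pair ratios were 1.42, 1.61 and 1.35. The unblocked fit gave 0.52 ± 0.26 with a limma adjusted p of 0.208, and the block brought that p to 0.0168. After median-of-ratios scaling its log2 fold change was 0.24 (adjusted p = 0.496). Its whole 2660-base span lies opposite *sma-2*, which averaged 1.38 TPM in antimycin A and 2.13 TPM in EtOH. The strand setting of the authors' quantification is not given in the sources used here, so reads of the overlapping genes cannot be told apart.

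The make-up of the TOM transcripts differed between the groups. This description was chosen after the values were seen and has no test; shares within a library are not touched by any library-wide scaling. *tomm-7* made up 28.3%, 25.6% and 28.4% of the summed TPM of the 5 TOM genes in antimycin A replicates 1 to 3, against 42.8%, 45.5% and 45.7% in EtOH replicates 1 to 3. *tomm-70* made up 9.73%, 9.26% and 9.72% in antimycin A, against 5.84%, 5.11% and 4.61% in EtOH. The share of *tomm-22* averaged 14.8% ± 2.87 in antimycin A and 14.8% ± 3.06 in EtOH. The ratio of *tomm-7* to the receptor gene *tomm-20* was 0.818, 0.615 and 0.775 in antimycin A, against 1.57, 1.65 and 1.81 in EtOH. Thus *tomm-7* was the most abundant TOM transcript per length in all 3 EtOH libraries, and *tomm-20* was in all 3 antimycin A libraries. The summed TPM of the 5 genes was 299 ± 52.1 in antimycin A and 376 ± 12.4 in EtOH.

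**Figure D2:**
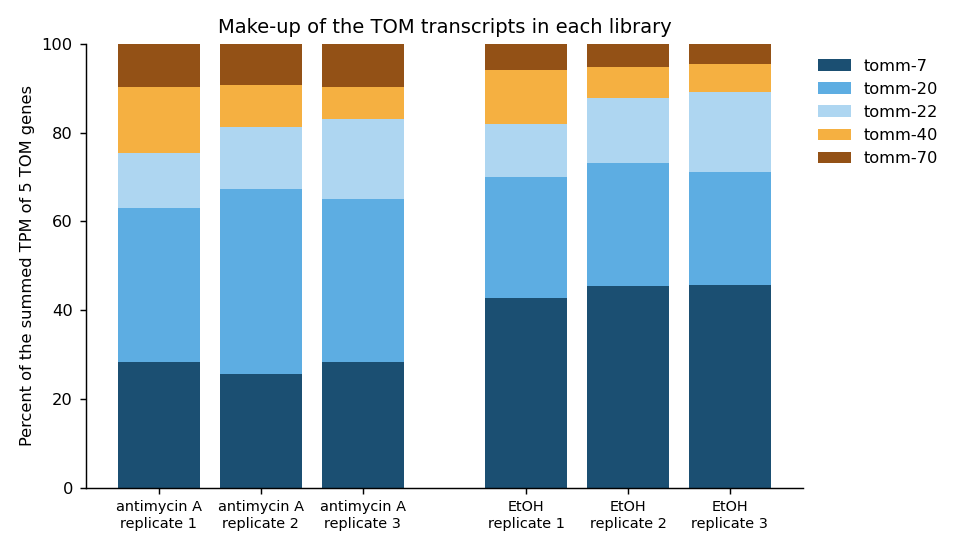
Percent of the summed TPM of the 5 TOM genes held by each gene, in antimycin A replicates 1 to 3 (left) and EtOH replicates 1 to 3 (right). The *tomm-7* segment takes 25.6% to 28.4% of the antimycin A bars and 42.8% to 45.7% of the EtOH bars.

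The genes of the inner membrane channel did not pass in either direction. *timm-23*, for the TIM23 channel subunit (WBGene00008857, chromosome I, 11578641 to 11579612), read 142, 122 and 103 TPM in antimycin A, against 118, 121 and 102 TPM in EtOH. Its pair ratios were 1.20, 1.00 and 1.01, so the excess of antimycin A lay almost wholly in replicate 1. The log2 fold change was 0.10 with a 95% interval of -0.36 to 0.55 (limma adjusted p = 0.843). *timm-17B.1*, for a homologue of its partner TIM17 (WBGene00017119, chromosome IV, 4744377 to 4745492), read 89.8, 80.2 and 55.5 TPM in antimycin A, against 86.7, 61.4 and 50.4 TPM in EtOH. It was higher in all 3 pairs (ratios 1.03, 1.31 and 1.10), but the groups overlapped widely (0.19, 95% interval -0.42 to 0.80, limma adjusted p = 0.744). Both signs turned after median-of-ratios scaling, to -0.19 for *timm-23* and -0.10 for *timm-17B.1*. The paralogue *timm-17B.2* was below the filter, at 0 to 0.763 TPM in antimycin A and 0.311 to 1.15 TPM in EtOH, so nearly all TIM17 transcripts were those of *timm-17B.1*.

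The small TIM members *tin-9.1*, *tin-10* and *tin-13* were lower in antimycin A in all 3 pairs. The proteins escort hydrophobic precursors across the intermembrane space, Tim9 with Tim10 and, in yeast and mammals, Tim8 with Tim13. *tin-13* fell, while *tin-9.1* and *tin-10* missed the threshold without the replicate block and passed with it. *tin-13* (WBGene00006574, chromosome I, 8759204 to 8759788) read 82.7, 86.8 and 74.5 TPM in antimycin A, against 114, 129 and 137 TPM in EtOH. The groups did not overlap, and the means were 81.4 TPM ± 6.28 in antimycin A and 127 TPM ± 11.3 in EtOH (SD, n = 3 each; log2 fold change -0.63 ± 0.19 SE, limma adjusted p = 0.0439, blocked 0.00117). The call was lost without any of antimycin A replicates 1, 2 and 3 or EtOH replicates 2 and 3, with a highest adjusted p of 0.179, and held without EtOH replicate 1 (adjusted p = 0.0416). Over these 6 omissions the log2 fold change ran from -0.70 to -0.57. Without both libraries of replicate 1, 2 or 3 the adjusted p was 0.0563, 0.396 and 0.212.

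*tin-9.1*, for a Tim9 homologue (WBGene00006572, chromosome IV, 7044058 to 7044602), read 137, 112 and 109.9 TPM in antimycin A, against 169, 181 and 178 TPM in EtOH. All antimycin A libraries were lower than all EtOH libraries. It missed the threshold without the block (-0.56 ± 0.19, limma adjusted p = 0.0662). The adjusted p was 0.00339 with the block and 0.0487 on median-of-ratios scaled values (-0.85). *tin-10*, for the Tim10 homologue (WBGene00006573, chromosome III, 11500867 to 11502852), read 42.7, 46.4 and 59.1 TPM in antimycin A, against 62.7, 58.6 and 79.6 TPM in EtOH. Antimycin A replicate 3 lay just above EtOH replicate 2, so the groups overlapped, while every pair was lower (ratios 0.681, 0.793 and 0.742). It passed with the block alone (-0.43 ± 0.23, limma adjusted p = 0.251, blocked 0.0265).

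Relative to the inner membrane channel gene *timm-23*, *tin-9.1* and *tin-13* had lower ratios in every antimycin A library than in any EtOH library, and the *tin-10* ratios overlapped between groups; these ratios were chosen after the values were seen and have no test. *tin-9.1* over *timm-23* was 0.971, 0.919 and 1.07 in antimycin A, against 1.43, 1.496 and 1.75 in EtOH. *tin-13* over *timm-23* was 0.584, 0.714 and 0.723 in antimycin A, against 0.970, 1.07 and 1.34 in EtOH. *tin-10* over *timm-23* was 0.301, 0.382 and 0.573 in antimycin A, against 0.532, 0.483 and 0.783 in EtOH, lower in every pair. Between the Tim9 and Tim10 partners the ratio overlapped too: *tin-10* over *tin-9.1* was 0.311, 0.416 and 0.537 in antimycin A and 0.371, 0.323 and 0.447 in EtOH. The 3 genes summed to 250.4 TPM ± 10.7 in antimycin A and 370 TPM ± 24.2 in EtOH.

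The order of the members by mean level shifted. In antimycin A, *timm-23* (122 TPM), *tin-9.1* (120 TPM, range 109.9 to 137) and *tomm-20* (113 TPM) led and overlapped one another. In EtOH, *tin-9.1* (176 TPM) and *tomm-7* (168 TPM) led, followed by *tin-13* (127 TPM), *timm-23* (114 TPM) and *tomm-20* (101 TPM). *tomm-70* and *tomm-40* were the lowest of the 10 in both groups, with means of 28.6 and 32.5 TPM in antimycin A and 19.6 and 32.4 TPM in EtOH. Even so, *tomm-70* stood above 74.2% of the tested genes in antimycin A and 71.5% in EtOH. *tomm-7* stood above 88.4% of tested genes in antimycin A and 94.3% in EtOH.

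**Figure D3:**
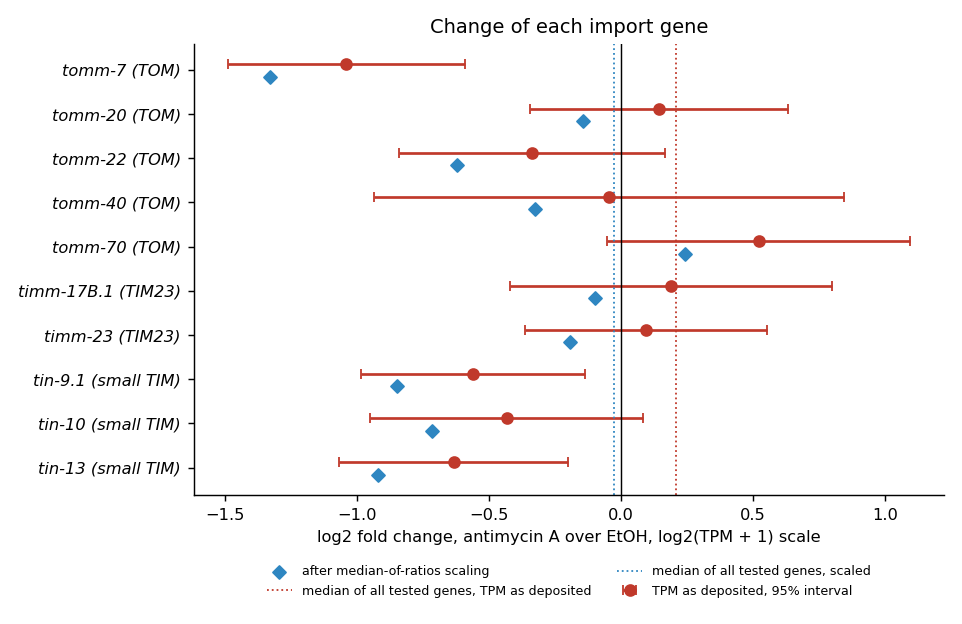
Log2 fold change of each import gene, antimycin A over EtOH, on the log2(TPM + 1) scale. Red points with bars are the values and 95% intervals from TPM as deposited, blue diamonds the values after median-of-ratios scaling, and dotted lines the medians of all tested genes (0.21 and -0.03). Only the intervals of *tomm-7*, *tin-9.1* and *tin-13* lie wholly below 0, before adjustment for the number of genes.

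The library scaling moved all members together. Median-of-ratios scaling took the median of all tested genes to -0.03 and that of the members to -0.47, and quantile normalization gave -0.09 and -0.52. Relative to the median of all genes the members' median was -0.40 as deposited, -0.45 with median-of-ratios scaling and -0.43 with quantile normalization. Median-of-ratios scaling called *tin-9.1* lower besides *tomm-7* and *tin-13*, so 3 members were lower and 0 higher, where 10.7% of all tested genes were lower and 12.6% higher. Only *tomm-70* lay above the median of all tested genes, by 0.31 on the log2 scale. *tomm-20*, *timm-17B.1* and *timm-23* stood at -0.06, -0.02 and -0.11 relative to it. In the authors' deposited table, *tomm-7*, *tin-9.1* and *tin-13* had q values of 1.27e-05, 0.0152 and 0.0135, with log2 ratios of -1.04, -0.56 and -0.64. The q values of the other 7 members in the authors' deposited table were 0.206 to 0.867. That table calls 11.7% of the genes tested here lower and 12.2% higher at q below 0.05.

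The 3 members with the lowest log2 fold changes have the 3 shortest annotated spans of the 10, at 547 bases for *tomm-7*, 585 for *tin-13* and 545 for *tin-9.1*. The other members span 972 to 2660 bases. Among the 614 tested protein-coding genes spanning up to 600 bases, 11.4% were called lower and 21.99% higher, with a median log2 fold change of 0.21. The longer genes were grouped by spans up to 1200, 2000 and 4000 bases and above 4000. In that order, 11.9%, 6.61%, 5.99% and 2.85% were called lower, and 15.4%, 16.8%, 14.1% and 9.82% higher. Their median log2 fold changes were 0.12, 0.23, 0.22 and 0.22. Across all 10834 tested protein-coding genes, span and log2 fold change had a Spearman rho of 0.04; across the 10 members it was 0.59. These are correlations across genes of the same 6 libraries, given as a description. Whether gene length had a part in the members' values was not tested.

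The other genes of the import pathway gave no call with group as the only term. A list of 34 further symbols matched 18 genes, of which 17 were tested; limma called 0 of them, with 1 at an unadjusted p under 0.05. They cover outer membrane protein sorting and insertion (*gop-3*, *mtx-1*, *mtx-2*), further small TIMs (*tin-9.2*, *ddp-1*), further inner membrane subunits (*scpl-4* and *C47G2.3*, annotated as tim-22), the import motor (*tin-44*, *dnj-21*, *F45G2.8*, *hsp-6*, *C34C12.8*), peptidases (*mppa-1*, *mppb-1*, *immp-1*, *immp-2*) and the insertase gene *oxa-1*. Their log2 fold changes ran from -0.68 to 0.73 with a median of 0.04. With the replicate block, *hsp-6* and *immp-2* were called higher and *ddp-1*, *mppa-1* and *oxa-1* lower, 2 and 3 of the 17, where 29.6% of all tested genes were called higher and 13% lower.

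*ddp-1*, the Tim8 homologue and the most abundant small TIM transcript in every library, read 216, 205 and 198 TPM in antimycin A, against 292, 342 and 222 TPM in EtOH. Its libraries did not overlap (-0.45 ± 0.21, limma adjusted p = 0.183, blocked 0.0199), so it went the way of *tin-13*, *tin-9.1* and *tin-10* in all 3 pairs. *tin-9.2*, annotated as a Tim10B homologue, did not. It read 49.0, 31.1 and 8.99 TPM in antimycin A and 45.3, 14.5 and 7.54 TPM in EtOH. It was higher in antimycin A in all 3 pairs (ratios 1.08, 2.15 and 1.19). The spread between replicates was far above the group difference (0.46 ± 0.67, limma adjusted p = 0.745, blocked 0.0564). *tin-9.2* overlaps *exos-4.1* on the same strand over 482 bases, so its reads are uncertain.

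*immp-2*, for an inner membrane peptidase, read 38.2, 32.6 and 47.7 TPM in antimycin A, against 22.7, 20.5 and 26.7 TPM in EtOH, with no overlap (0.73 ± 0.25, limma adjusted p = 0.0681, blocked 7.30e-04). *mppa-1*, for the alpha subunit of the presequence peptidase, read 9.59, 8.82 and 4.01 TPM in antimycin A, against 13.5, 9.61 and 10.4 TPM in EtOH (-0.58 ± 0.37, limma adjusted p = 0.345, blocked 0.0376, and 0.0334 after median-of-ratios scaling). *oxa-1*, for the insertase of the inner membrane, read 9.96, 9.13 and 5.72 TPM in antimycin A, against 13.4, 15.5 and 11.9 TPM in EtOH (-0.68 ± 0.31, limma adjusted p = 0.176, blocked 0.0083, and 0.0236 after median-of-ratios scaling). *mppa-1* and *oxa-1* were thus lower in antimycin A in every pair, with the call depending on the block or the scaling.

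**Figure D4:**
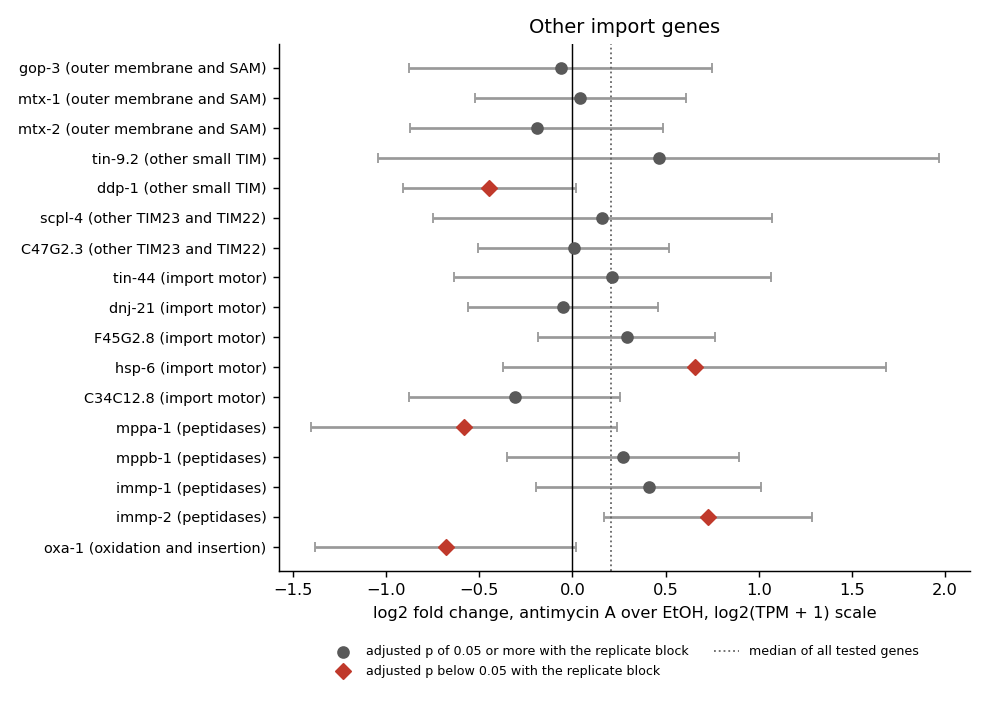
Log2 fold change of the 17 other tested import genes, antimycin A over EtOH, on the log2(TPM + 1) scale, with 95% intervals. The intervals are from the fit without the block, red diamonds mark the genes with an adjusted p below 0.05 with the replicate block, and the dotted line is the median of all tested genes (0.21). The values run from -0.68 for *oxa-1* to 0.73 for *immp-2*.

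*hsp-6*, the mitochondrial Hsp70 of the import motor, read 101, 49.6 and 33.1 TPM in antimycin A, against 63.9, 30.5 and 21.1 TPM in EtOH. The replicates differed more than the groups, while the pair ratios were nearly alike at 1.58, 1.63 and 1.57 (0.66 ± 0.46, limma adjusted p = 0.410, blocked 0.00129). *atfs-1*, for the import-regulated transcription factor, read 107, 85.7 and 80.9 TPM in antimycin A, against 24.7, 17.3 and 15.8 TPM in EtOH, and rose (2.201 ± 0.25, limma adjusted p = 1.97e-04). *hsp-60*, for the chaperonin that folds imported matrix proteins, read 71.97, 59.6 and 37.4 TPM in antimycin A, against 103, 88.9 and 60.5 TPM in EtOH. It was lower in every pair although the groups overlapped (-0.59 ± 0.30, limma adjusted p = 0.221, blocked 0.00254, and 0.0167 after median-of-ratios scaling).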

How the data were processed

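The genome build was WBcel235, and the tools were StringTie 2.1.4, HISAT2, DESeq2 1.28.1, Trimmomatic 0.36 and bcl2fastq 2.20, per the submitters' processing notes. The strand setting is not given in the sources used here. The authors deposited TPM per library, and a fold ratio, log2 ratio, p-value and q-value of antimycin A over EtOH. The 3 tables of same-numbered pairs repeat the TPM exactly. Genes at 1e-04 TPM in the deposited tables were set to 0.

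Values were tested as log2(TPM + 1), with a pseudocount of 1, in limma 3.58.1 under R 4.3.3, using a mean-variance trend and no term but group. The 11099 genes tested had 1 TPM or more in 3 or more libraries. Adjusted p values are Benjamini-Hochberg over these genes. The scale understates changes of low genes. The code was tested on simulated data. Tables used Python 3.11.15.

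The design text calls the experiments independent, each with both groups. The replicate numbers were taken as pairs from that text. Deviations from group means correlated at 0.68, 0.31 and 0.59 between libraries of replicates 1, 2 and 3. Between libraries of unlike number the correlations ran from -0.61 to 0.06. Deviations within a group cancel, so these correlations are not independent of one another. The main fit leaves the pairing out, and the fit with the replicate block, an alternative, takes it in. Other alternatives were scalings, pseudocounts, filters, quality weights and left-out libraries.

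The members and lists were chosen with earlier results of these data known. The members, the tested genes of the import list, *tbh-1*, *rpl-22*, *atfs-1*, *hsp-60* and marker genes could be named. The 6 other import genes given per library are those called with the block and the other small TIM; they, *sma-2* and *exos-4.1* were chosen after their values were seen. Summed levels of the markers of germline (112 to 221 TPM in antimycin A, 101 to 309 TPM in EtOH), body wall muscle (771 to 1172 and 744 to 1027 TPM) and hypodermis (152 to 281 and 320 to 377 TPM, *bli-1* at 0 in at least 1 library) were computed the same way. Most of the hypodermis sum was *col-19*, called lower (-0.82, limma adjusted p = 0.0347). *dpy-7*, at a mean of only 0.473 TPM in EtOH, was called higher (1.89, limma adjusted p = 0.00245). It was under 1 TPM in every EtOH library, so it passed the filter only through the antimycin A group where it was high. No germline or muscle marker was called without the block, and with it only *gld-1* was, as lower (limma adjusted p = 0.0430).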

Additional observations from a re-analysis of the deposited data

How the results depend on the processing

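Of 180 member results under 18 alternatives, 153 kept direction and side of the threshold. With the replicate block, 1 member was higher and 4 lower, 2 and 3 of the other import genes, and 3282 and 1442 of all genes. With quality weights the counts were 1 and 3, 4 and 2, and 4094 and 1219; limma's default weight estimate did not converge, so its gene-by-gene estimate was used, with weights of 0.285 to 4.15. Median-of-ratios scaling called 3 members and 2 other import genes lower, and 1394 and 1185 of all genes higher and lower (54.1% higher, against 68.7% as deposited). Quantile normalization called 3 and 3 lower, and 1423 and 1398 of all genes (50.4% higher). With 1 library left out, 1 to 2 members were lower, 768 to 2059 genes higher and 410 to 705 lower. Without both libraries of replicate 1, 2 or 3, the members lower numbered 1, 0 and 1; all genes higher were 1226, 391 and 964, and lower 674, 162 and 372. With fewer libraries the test has fewer degrees of freedom. Signs turned for uncalled genes. Median-of-ratios and quantile scaling gave *tomm-20* -0.14 and -0.11, *timm-17B.1* -0.10 and -0.12, and *timm-23* -0.19 and -0.16. *tomm-40* was 0.27 with quality weights and 0.14 without both of replicate 3. With 1 library left out, *tomm-40* ran from -0.39 to 0.33, *timm-23* from -0.016 to 0.21 and *tin-9.2* from -0.086 to 1.13. The cause was not tested. Pseudocounts and filters changed no member's call.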
